A study of Mus musculus with 17 samples.

Results

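The comparison set B cells against CD4 T cells sorted from the lacrimal gland of NOD mice: 4 arrays of gland B cells and 4 of gland CD4 T cells, 8 of the 17 arrays in the series. Members were all arrays whose titles name these subsets and this tissue, and the difference, B minus CD4 T on the log2 scale, was examined over 17097 genes, each read through 1 probe set. The gland donors were male NOD mice 16 weeks old, a strain whose lacrimal glands become infiltrated by lymphocytes and which serves as a model of Sjögren's syndrome. B cells were gated as B220+ and CD3-, and CD4 T cells as CD3+ and CD4+; both were CD45+ and negative for NKp46, CD11b and CD11c, at a stated purity over 99%. The other 9 arrays held the same subsets from the spleen of NOD mice, 3 each, and gland epithelium, 3 arrays. Spleen donors are 16 weeks old in the sample labels and 4 weeks old in the design text, and a digestion enzyme is stated for the gland suspension only, so that tissue, age and handling cannot be told apart in any contrast with spleen. The labels name no animals behind the replicates; p-values therefore measure only how far these samples spread, which may be technical.

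B cells recognise antigen through surface immunoglobulin, present it on MHC class II and, with help from CD4 T cells, go on to make antibody. CD4 T cells read those MHC class II complexes through the T cell receptor and answer with membrane ligands such as CD40 ligand and with secreted cytokines and chemokines. In the lacrimal gland of Sjögren's syndrome both cell types collect around ducts, where they lie close enough to exchange such signals.

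The lineage genes followed the sort labels. Bank1, a B cell scaffold protein, stood at 10.82, 10.70, 10.78 and 10.62 in gland B cells and at 3.82, 3.06, 4.20 and 3.86 in gland CD4 T cells. Ms4a1, the CD20 gene, lay between 11.01 and 11.14 in B cells and between 2.82 and 4.84 in CD4 T cells. Cd3e and Cd4, which encode surface proteins used in the sort and are therefore no finding, lay between 9.86 and 10.71 in CD4 T cells and between 4.69 and 5.90 in B cells. For none of these 4 genes did the arrays of the subsets overlap. Ptprc, which encodes CD45 and its B220 form, differed by 0.09 (SE 0.06).

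Values are log2 signals with no detection call. The median of all deposited values was 4.71, and a fold against a level below it compares 2 deposited numbers of which the lower may be background. In sorted bulk samples a higher level may come from more cells that carry the transcript or from more transcript per cell, which cannot be told apart.

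Of the 17097 genes, 644 (3.77%) were higher in B cells and 1029 (6.02%) higher in CD4 T cells (1673, or 9.79%, in all), at an adjusted p under 0.05 (limma, Benjamini-Hochberg) and at least 2-fold. At least 4-fold separated 281 and 440 of them, and at least 16-fold 80 and 113. The 4 arrays of a subset lay wholly above those of the other for 625 of the B cell calls and 1016 of the CD4 T cell calls, against 31.6% of all genes. The shares of 3.77% and 6.02% are those to set beside the counts of list genes called in gland. The median gene differed by 0.04. Centring each array on its median moved the median by 0.117 and gave 741 genes higher in B cells and 921 higher in CD4 T cells.

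**Figure D1:**
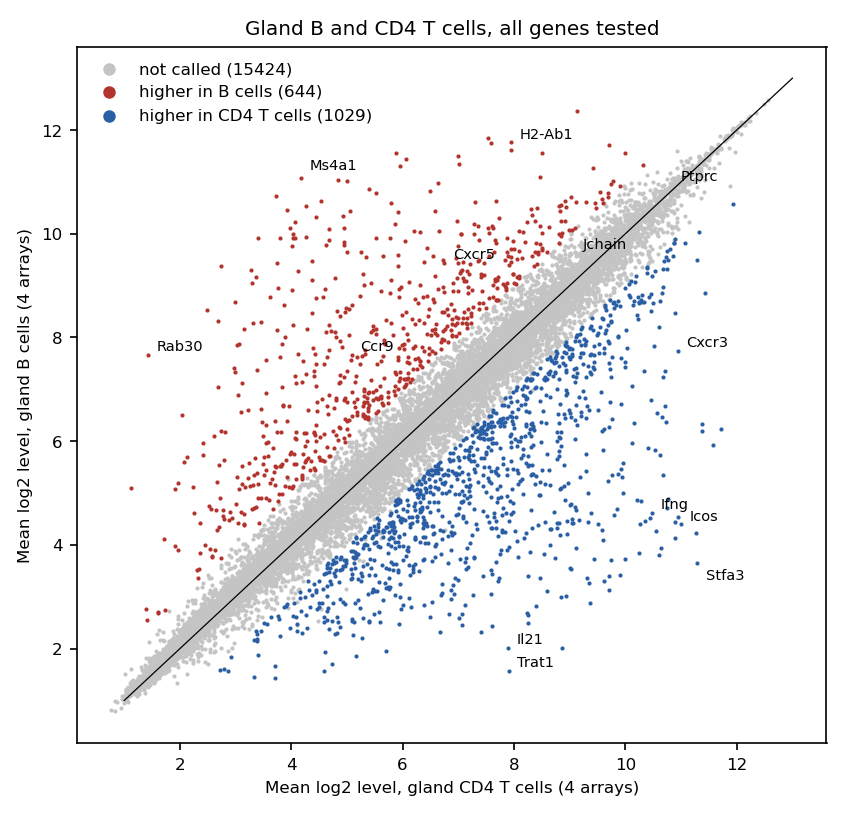
Mean log2 level of each of 17097 genes in gland CD4 T cells (x axis, 4 arrays) and gland B cells (y axis, 4 arrays), with the line of equal level. The 644 genes called higher in B cells are red and the 1029 called higher in CD4 T cells blue; Ptprc and Jchain lie near the line.

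The largest differences towards B cells belonged to Bank1 (128-fold; 7.0, SE 0.19, adjusted p = 1.41e-12), Ms4a1 (119-fold), Dennd5b, a DENN domain protein (6.65 on the log2 scale), Siglecg, an inhibitory sialic acid lectin of the B cell receptor (92.0-fold), Fcer2a, the low-affinity IgE receptor CD23 (90.6-fold), and Btk, the tyrosine kinase of the B cell receptor (76.6-fold). Rab30, a small GTPase, Spib, an Ets family transcription factor, Fcrla, an intracellular Fc receptor-like protein, and Blnk, the B cell linker adaptor, followed at 71.1-fold to 75.9-fold. Towards CD4 T cells the largest was Stfa3, a stefin A protease inhibitor, at 11.21, 11.25, 11.36 and 11.33 in CD4 T cells and 3.45, 3.91, 3.53 and 3.74 in B cells (198-fold; -7.63, SE 0.23, adjusted p = 4.93e-12). Stefin A genes are near-identical copies of each other, so the signal may include its relatives. Nrn1, neuritin, was 131-fold higher in CD4 T cells, Tnfsf11, which encodes RANKL, 115-fold, Ikzf2, the Helios transcription factor, 112-fold, and Cd3g 109-fold. Il18r1, an interleukin 18 receptor chain (103-fold), Icos (96.9-fold), Cd96 (94.3-fold), Cst7, a cystatin (89.5-fold), and F2r, a thrombin receptor (89.0-fold), completed the 10 largest.

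The antigen receptor machinery divided by lineage. All 13 measured B cell identity genes were higher in B cells, with a median of 5.89, and 14 of 15 T cell identity genes were higher in CD4 T cells, with a median of -5.49. The exception was Cd2, a costimulatory receptor, which stood between 10.59 and 10.77 in B cells and between 11.33 and 11.37 in CD4 T cells, a difference of -0.67 under the 2-fold limit. Of 17 genes of B cell receptor signalling 12 were higher in B cells, led by Siglecg, Btk, Blnk and Blk, and none in CD4 T cells. Of 17 genes of T cell receptor signalling 8 were higher in CD4 T cells, among them Prkcq, protein kinase C theta (-6.40), Sh2d1a, the adaptor SAP (-6.32), Zap70 (-4.86) and Lat (-4.63), and none in B cells. Their medians were 2.42 and -0.96. The remaining 5 and 9 genes, such as Grb2, an adaptor of many receptors (0.48), and Rasgrp1, an activator of Ras (-0.43), did not pass.

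Transcription factors divided in the same way. In B cells 11 of 20 listed B lineage factors were higher, with Spib, Mef2c (6.10), Ebf1, which sets B cell fate (6.03), and Hhex (5.38) in front, and none of the 20 was higher in CD4 T cells (median 1.61). In CD4 T cells 14 of 17 T lineage factors were higher (median -2.59), with Ikzf2, Bcl11b (-6.46), Gata3 (-5.92) and Maf (-5.56) in front. Tbx21, the T-bet factor that B cells can also express, stood at 6.55, 6.11, 6.84 and 6.37 in B cells and at 9.03, 9.07, 9.07 and 8.95 in CD4 T cells, a 5.91-fold difference with no overlap. Prdm1, a factor of plasma cells and of effector T cells, was 11.2-fold higher in CD4 T cells.

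Promoters of genes that divide the subsets are shown with the letters of 3 lineage motifs. RefSeq promoter windows (GRCm38.p6, 250 bases before to 50 after the start) were searched on both strands for the octamer ATTTGCAT bound by Oct factors, an EBF motif TCCCNNGGG and a TCF and LEF motif CTTTGAT. The octamer was in 2.63% of 646 windows of genes higher in B cells, 1.22% of 1069 windows of genes higher in CD4 T cells and 1.41% of all 17065 windows. The EBF letters were in 8.67%, 6.83% and 7.72%, and the TCF and LEF letters in 3.10%, 2.53% and 2.99%. Of 138 named genes 106 had a window and 12 held a motif. Any on a chromosome left out beforehand were not considered for printing. Of the rest, the 4 with the largest difference are printed 5′ to 3′ on the strand of the gene, with the match in capitals. Blnk (chr19:40994172-40994471, minus strand) holds the octamer and H2-DMb2 (chr17:34144999-34145298, plus strand) the EBF letters on the other strand. Trat1 (chr16:48772013-48772312, minus strand), a T cell receptor adaptor, and Tnfrsf9 (chr4:150919905-150920204, plus strand), the costimulatory receptor 4-1BB, hold the TCF and LEF letters, Tnfrsf9 on the other strand. A match describes letters and shows no bound site.
Blnk: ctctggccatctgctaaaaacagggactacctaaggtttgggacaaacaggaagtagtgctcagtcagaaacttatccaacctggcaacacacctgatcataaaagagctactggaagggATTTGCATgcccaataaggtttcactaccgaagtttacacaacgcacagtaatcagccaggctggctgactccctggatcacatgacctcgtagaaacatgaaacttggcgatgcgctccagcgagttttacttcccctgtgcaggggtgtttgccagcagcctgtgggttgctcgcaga
H2-DMb2: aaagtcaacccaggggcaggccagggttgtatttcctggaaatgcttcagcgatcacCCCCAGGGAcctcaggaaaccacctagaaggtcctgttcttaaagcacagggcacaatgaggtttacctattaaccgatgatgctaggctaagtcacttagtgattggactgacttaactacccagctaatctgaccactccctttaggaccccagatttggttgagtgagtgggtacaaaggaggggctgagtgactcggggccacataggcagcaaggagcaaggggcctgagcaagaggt
Trat1: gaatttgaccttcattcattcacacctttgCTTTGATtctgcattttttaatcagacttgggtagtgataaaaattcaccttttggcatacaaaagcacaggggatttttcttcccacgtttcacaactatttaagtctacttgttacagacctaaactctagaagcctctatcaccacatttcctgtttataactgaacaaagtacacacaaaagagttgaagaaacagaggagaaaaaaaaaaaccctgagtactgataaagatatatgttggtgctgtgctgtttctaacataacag
Tnfrsf9: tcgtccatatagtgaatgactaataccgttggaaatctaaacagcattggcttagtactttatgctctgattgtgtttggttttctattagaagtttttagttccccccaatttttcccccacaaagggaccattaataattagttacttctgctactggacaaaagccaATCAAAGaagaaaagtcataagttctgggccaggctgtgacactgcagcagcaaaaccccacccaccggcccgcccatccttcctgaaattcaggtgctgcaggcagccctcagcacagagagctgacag
The first 2 belong to genes 71.1-fold and 50.6-fold higher in B cells and the last 2 to genes 81.3-fold and 39.0-fold higher in CD4 T cells.

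Antigen presentation genes were higher in B cells, and for 5 of them the distance between the subsets was smaller in gland than in spleen. Of 13 measured genes of MHC class II presentation 12 were higher in gland B cells, with a median of 4.30; Ctss, a lysosomal protease, differed by 0.35. Marchf1, a ubiquitin ligase that clears class II molecules, was 53.7-fold higher, H2-DMb2, a chain of the peptide exchanger H2-DM, 50.6-fold, H2-Ob 41.1-fold and Ciita, the class II transactivator, 30.1-fold. H2-Ab1, a class II beta chain, stood at 11.68, 11.71, 11.85 and 11.79 in gland B cells and at 7.42, 8.38, 8.13 and 7.88 in gland CD4 T cells. In spleen CD4 T cells it stood at 4.90, 5.16 and 5.0, below every gland CD4 T cell array, while spleen B cells lay between 11.57 and 11.70. The B minus CD4 T difference of H2-Ab1 was therefore 3.81 in gland and 6.60 in spleen, gland minus spleen -2.79 (limma, adjusted p = 2.56e-06).

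Of the 17097 genes, 231 (1.35%) had a B minus CD4 T difference that was higher in gland than in spleen by at least 2-fold at an adjusted p under 0.05 and 707 (4.14%) a lower one (938, or 5.49%, in all), so that 24.6% of these calls were on the higher side. With arrays centred on their medians the counts were 339 and 587, or 36.6% on the higher side. The shares of 1.35% and 4.14% are those to set beside counts of list genes with a higher or a lower difference. In the class II list 5 of 13 had a lower difference, H2-Aa (-2.69), Cd74 (-2.76) and H2-Eb1 (-2.67) beside H2-Ab1 and H2-DMb2 (-1.18), and 1 a higher one, H2-Ob (1.13). H2-DMb2 was at -0.81 when its probe sets were averaged, and H2-Ob at 0.99 and 0.98 without replicate 1 of the gland or of the spleen CD4 T cells. With all 17 arrays in the fit the gland minus spleen differences of H2-Aa and H2-Ob were not called (adjusted p = 0.0936 and 0.0839 by limma). Beside these values, the B cell identity list had a mean level between 5.23 and 5.64 in the gland CD4 T cell arrays and between 5.04 and 5.26 in the spleen CD4 T cell arrays, and Ms4a1 lay between 2.82 and 4.84 in gland and between 3.21 and 3.59 in spleen CD4 T cells. The part of B cell RNA in the class II values of CD4 T cells was not tested.

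Of 3 antibody genes 1 separated the gland subsets. Ighm, the IgM heavy chain constant region, was 6.58-fold higher in B cells (6.64, 6.81, 6.74 and 6.54 against 3.84 to 4.12). Igha lay between 2.59 and 2.84 in all 8 arrays. Jchain, which joins polymeric immunoglobulin, stood at 9.86, 9.57, 9.68 and 9.43 in gland B cells and at 9.25, 8.32, 9.54 and 9.26 in gland CD4 T cells, and the arrays overlapped (0.54, SE 0.40, adjusted p = 0.339). In spleen it was at 11.15 to 11.22 in B cells and 4.26 to 6.85 in CD4 T cells, so that the difference in gland minus that in spleen was -5.07 for Jchain (limma, adjusted p = 7.25e-05). The part of RNA from other cells in the Jchain values of CD4 T cells was not tested. Of 10 plasma cell genes 1, Tnfrsf13b, was higher in B cells and 1, Prdm1, in CD4 T cells (median 0.21), and 5 had a lower difference in gland than in spleen: Jchain, Prdm1 (-2.92), Tnfrsf17 (-1.38), Xbp1 (-1.37) and Irf4 (-1.23). Irf4 was at -0.86 when its probe sets were averaged, which also put its gland difference at 1.19 and called it higher in B cells, and its gland minus spleen difference was not called with all 17 arrays in the fit (adjusted p = 0.28).

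**Figure D2:**
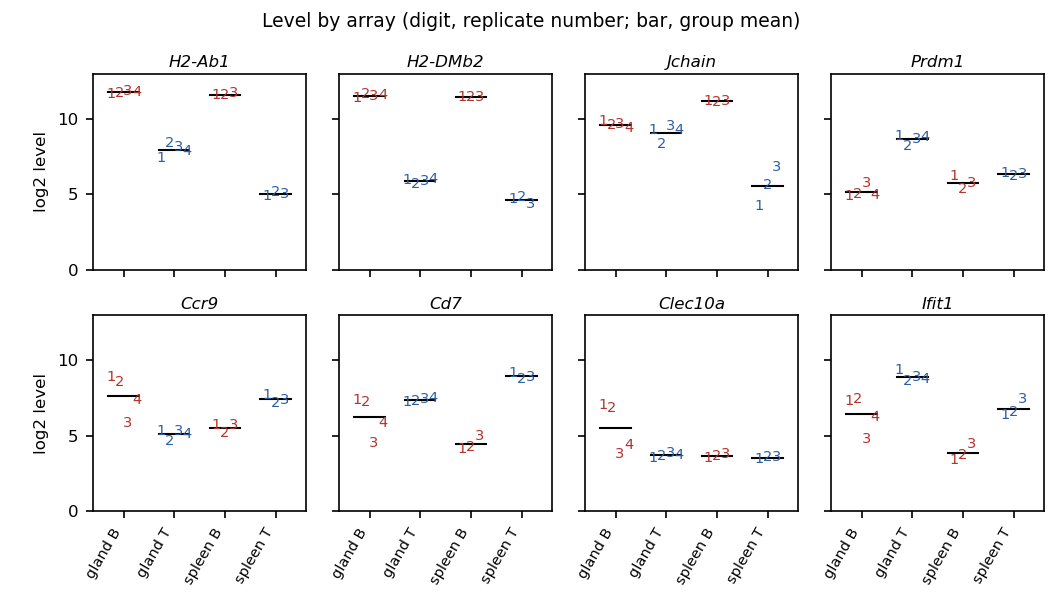
Log2 level of 8 genes in each array of gland and spleen B cells (red) and CD4 T cells (blue); digits are replicate numbers and bars group means. In the upper row the gland CD4 T cell arrays lie above the spleen CD4 T cell arrays for H2-Ab1 and Jchain. In the lower row gland B cell replicates 1 and 2 lie above 3 and 4 for Ccr9, Cd7, Clec10a and Ifit1.

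Some innate sensors and receptors for antibody and complement were higher in B cells, and none of the listed ones was higher in CD4 T cells. Of 21 Toll-like receptor genes and adaptors 9 were higher in B cells and none in CD4 T cells (median 0.45): Ly86 (44.5-fold) and Cd180 (36.2-fold), which form a receptor complex on B cells, Irak3 (12.3-fold), Unc93b1, which carries nucleic acid sensing receptors to endosomes (8.49-fold), Slc15a4, Tlr7 (5.26-fold), Irf5, Tlr3 and Tlr6 (1.05, and 0.94 to 1.0 without B cell replicate 1 or 2 or CD4 T cell replicate 2). Tlr7 stood at 9.21, 8.75, 7.85 and 8.87 in B cells and at 6.53, 5.56, 6.69 and 6.33 in CD4 T cells, with no overlap, and Tlr9 differed by 0.39. Of 12 Fc receptor genes 6 were higher in B cells (median 1.02), with Fcer2a, Fcrla, Fcgr2b, the inhibitory receptor for IgG (70.2-fold), and Fcrl1 (7.78-fold) in front. Of 9 complement receptors and regulators Cr2, complement receptor type 2 (61.8-fold), and Cd55 (5.86-fold) were higher in B cells (median 0.66). Over all genes 3.77% were higher in gland B cells.

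**Figure D3:**
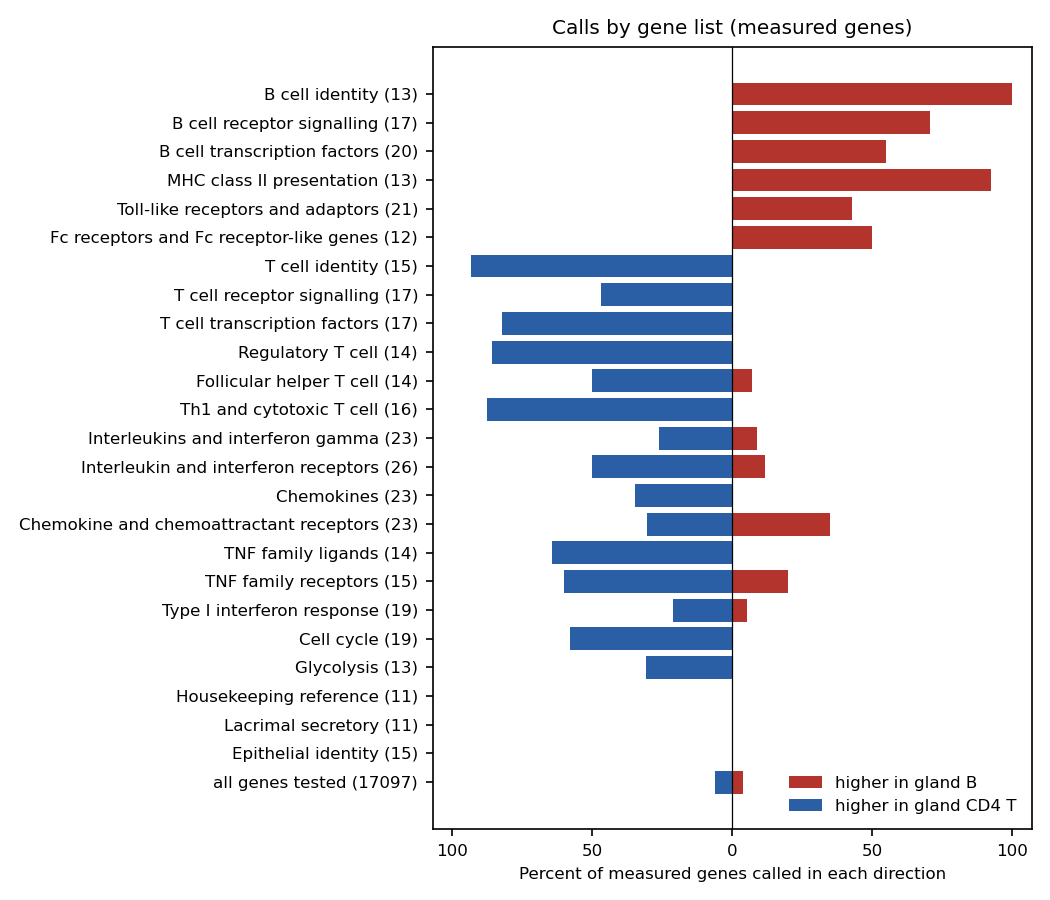
Percent of the measured genes of each list called higher in gland B cells (red, right) or in gland CD4 T cells (blue, left), with the number measured in brackets and all 17097 genes in the last row. No member of the housekeeping, secretory and epithelial lists was called.

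For some costimulatory pairs 1 partner was higher in each subset. Of 47 listed pairs with both partners measured, 43 join different genes; in 13 of these the partners were higher in opposite subsets, in 7 in the same subset, in 20 only 1 partner was called and in 3 neither. Among the 13 is Cd4 with H2-Ab1, whose Cd4 side was fixed by the sort and is no finding. Cd86, H2-Ab1 and Tnfsf13b each stand in more than 1 of the 13, so the pairs are not independent. The pairs were picked as partners, and no share over other gene pairs was counted. The number 13 is therefore not read as an excess. When probe sets were averaged, 9 pairs had partners higher in opposite subsets. Icos, which drives T cell help, stood at 10.91, 11.39, 11.01 and 10.69 in CD4 T cells, against 4.22, 4.48, 4.88 and 4.02 in B cells, and its ligand Icosl at 6.72 to 7.27 and 11.13 to 11.47 (20.2-fold higher in B cells). Cd40, the receptor through which B cells receive help, stood at 11.14, 10.95, 10.80 and 11.03 in B cells and at 6.49, 6.64, 6.66 and 6.73 in CD4 T cells (20.4-fold). Its ligand gene Cd40lg was at 5.38, 6.28, 5.81 and 5.71 in CD4 T cells, against 4.07, 4.17, 4.08 and 4.29 in B cells, a 3.12-fold difference. None of these arrays overlapped between the subsets.

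Cd28 (77.5-fold) and Ctla4 (36.2-fold), the activating and the inhibitory receptor for B7 proteins, were higher in CD4 T cells. Of their ligands Cd86 was 3.83-fold higher in B cells, with 7.44 to 7.71 against 5.45 to 5.72, while Cd80 overlapped (4.73 to 5.34 against 4.62 to 4.78) and differed by 0.22 (SE 0.12, adjusted p = 0.177). Pdcd1, the inhibitory receptor PD-1, was 66.2-fold higher in CD4 T cells, and neither ligand gene was called: Cd274 differed by -0.14 and overlapped, and Pdcd1lg2 by -0.66. The further pairs in opposite subsets were Cd5 and Cd72, Btla and Tnfrsf14, Cd4 and Lag3 with H2-Ab1, Ccl3 with Ccr1, and the other cytokine and chemokine pairs given with their families.

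**Figure D4:**
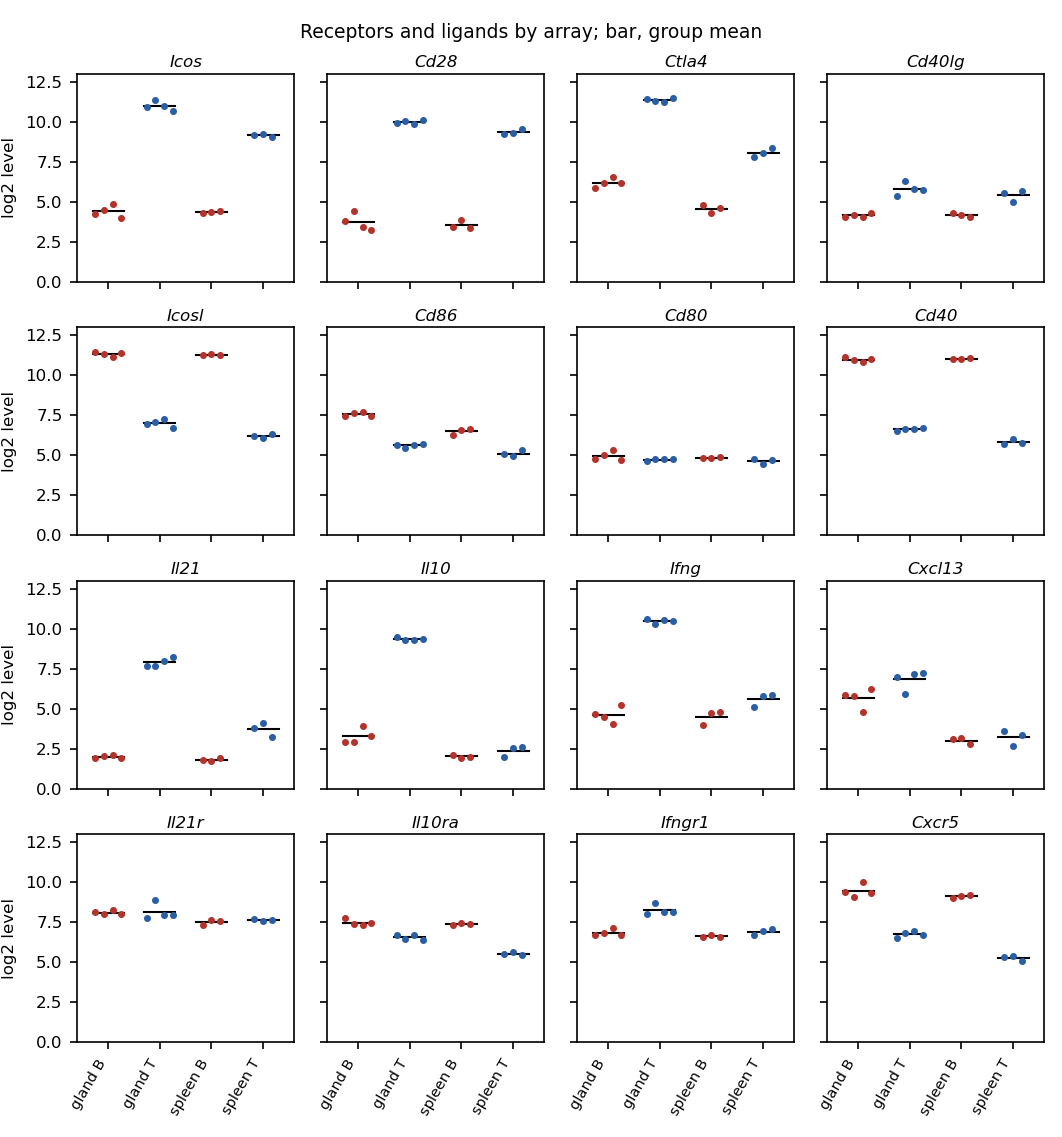
Log2 level of 16 receptor and ligand genes in each array of gland B cells (4), gland CD4 T cells (4), spleen B cells (3) and spleen CD4 T cells (3); bars are group means. Icos, Cd28 and Ctla4 are high in CD4 T cells and Icosl, Cd86 and Cd40 in B cells, whereas Cd80 and Il21r lie at one level in both gland subsets.

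TNF family ligands were on the CD4 T cell side. Of 14 measured ligands 9 were higher in CD4 T cells and none in B cells, with a median of -1.72; the 9 were Tnfsf11, Fasl (48.3-fold), Tnfsf8 (11.0-fold), Tnfsf14 (9.25-fold), Tnfsf9, Tnfsf10, Tnf, Tnfsf13b and Cd40lg. Tnfsf11 lay between 8.75 and 9.02 in CD4 T cells and between 1.91 and 2.16 in B cells, and its receptor gene Tnfrsf11a between 2.88 and 3.43 in all 8 arrays. Tnfsf13b, which encodes the B cell survival factor BAFF, stood at 6.51, 6.69, 6.88 and 6.72 in CD4 T cells, against 4.89, 5.11, 5.20 and 4.78 in B cells (3.25-fold, adjusted p = 9.12e-07), and was at -0.80 when its probe sets were averaged. Its receptors were higher in B cells, Tnfrsf13c 8.21-fold and Tnfrsf13b 3.65-fold. Of 15 TNF family receptors these and Cd40 were higher in B cells, and 9 were higher in CD4 T cells (median -1.12), among them Cd27 (77.8-fold), Tnfrsf9 (39.0-fold) and Tnfrsf4, the OX40 gene (29.4-fold). The lymphotoxin genes Lta and Ltb differed by -0.34 and -0.48.

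Cytokine genes that divided the subsets were mostly CD4 T cell genes. Il10, which encodes a suppressive cytokine, stood at 9.47, 9.28, 9.26 and 9.36 in CD4 T cells, against 2.93, 2.95, 3.89 and 3.30 in B cells (67.4-fold, adjusted p = 5.97e-12). Il21, a helper cytokine for B cells, stood at 7.68, 7.69, 7.95 and 8.24 against 1.93 to 2.12 (58.7-fold), and Ifng at 10.59, 10.31, 10.54 and 10.49 against 4.04 to 5.25 (58.3-fold). Il2, Csf1 (-1.88, and -0.94 through another probe set) and Lif (-1.42, and -0.44 when its probe sets were averaged) were higher in CD4 T cells as well, 6 of 23 in all (median -0.06, and 0.06 with arrays centred on their medians), and no gland array of one subset overlapped the other for Il10, Il21, Ifng or Il2. Higher in B cells were Il12a, a chain shared by 2 cytokines (4.41-fold; 5.44, 6.20, 5.25 and 6.01 against 3.34 to 3.77), and Tgfb3 (3.47-fold). Il4 overlapped (-0.06, adjusted p = 0.817), Il17a was at 2.54 or lower in all 8 arrays and Il6 at 1.5 or lower.

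For several cytokine genes the subsets lay closer together in spleen. The B minus CD4 T difference was lower in gland than in spleen for 9 of the 23, and higher for 1, Tgfb3. The difference was -6.07 in gland and -0.34 in spleen for Il10 (-5.74, adjusted p = 2.62e-08), -5.86 and -1.09 for Ifng (-4.78, adjusted p = 1.52e-06) and -5.88 and -1.89 for Il21 (-3.98, adjusted p = 1.5e-07). Il10 was at a mean of 2.37 in spleen CD4 T cells and 2.03 in spleen B cells.

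The receptors for these cytokines were spread over both subsets. Of 26 receptor genes (median -0.84) 13 were higher in CD4 T cells, led by Il18r1, Il2rb (60.7-fold), Il2ra (25.7-fold) and Tgfbr3 (22.4-fold), and 3 in B cells, Il5ra (7.15-fold), Ifngr2 (2.25-fold) and Il4ra (2.01-fold). Il21r stood at 8.11, 8.00, 8.24 and 8.02 in B cells and at 7.78, 8.91, 7.93 and 7.94 in CD4 T cells and overlapped (-0.05, adjusted p = 0.868). Il10ra was 1.90-fold higher in B cells, under the 2-fold limit, and past it with arrays centred on their medians or quantile normalized (1.04 in either). The interferon gamma receptor chains lay on opposite sides, Ifngr1 2.63-fold higher in CD4 T cells and Ifngr2 in B cells. Ifngr2 was at 0.84 when its probe sets were averaged. Il4ra, with replicate 2 of the CD4 T cells at 7.09 and the others at 5.62 to 6.01, overlapped and was at 0.84 to 0.96 without CD4 T cell replicate 1, 3 or 4 or B cell replicate 4.

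Chemokine genes were called in CD4 T cells alone, 8 of 23 against none in B cells (median -0.09, and 0.03 with arrays centred on their medians). Ccl5 stood at 10.22, 10.37, 10.35 and 9.88 in CD4 T cells, against 5.31, 4.58, 4.27 and 5.31 in B cells (40.5-fold). Xcl1 was 20.2-fold, Ccl1 13.3-fold, Cxcl10, an interferon-induced chemokine, 7.95-fold and Ccl3 7.87-fold higher in CD4 T cells; Ccl4, Cxcl2 and Cxcl13 were the others. Ccl4 (-1.57) was not called with all 17 arrays in the fit (adjusted p = 0.0592). Of these 8 all but Cxcl13 had a lower difference in gland than in spleen, as Ccl1 (-3.67) and Cxcl10 (-2.92), whereas with all 17 arrays in the fit 3 of the 23 chemokine genes had one. Cxcl13, which attracts B cells to follicles, stood at 6.98, 5.91, 7.17 and 7.25 in CD4 T cells, against 5.86, 5.78, 4.80 and 6.20 in B cells, so that the arrays overlapped (2.25-fold, adjusted p = 0.0127); it was at -0.88 without B cell replicate 3 and -0.86 when its probe sets were averaged, and was not called with the replicate number as a block in the 8 gland arrays (adjusted p = 0.0501).

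Receptors for chemokines and other chemoattractants separated the subsets in both directions. Of 23 genes (median 0.00) 8 were higher in B cells, among them S1pr3 (10.5-fold), Ccr1, a receptor for the product of Ccl3 (3.84-fold; 3.72 to 4.05 against 1.89 to 2.17, both below the median of all values), Ccr6 (7.71-fold), Cxcr5, the receptor for the product of Cxcl13 (6.47-fold), and Ccr9 (5.95-fold). In CD4 T cells 7 were higher, among them Ccr8 (56.9-fold), Cxcr6 (15.7-fold) and Cxcr3, the receptor for Cxcl9 and Cxcl10 (9.23-fold). Cxcr5 stood at 9.37, 9.06, 10.03 and 9.29 in B cells and at 6.49, 6.85, 6.95 and 6.69 in CD4 T cells. Ccr8 lay between 8.63 and 9.09 in gland CD4 T cells, between 2.90 and 3.07 in gland B cells and at a mean of 3.80 in spleen CD4 T cells, and the gland minus spleen difference of Ccr8 was -4.77 (limma, adjusted p = 1.62e-09). Among homing molecules Itgae, an integrin chain that binds epithelial cadherin, was 13.6-fold higher in CD4 T cells and Itgb3 3.41-fold higher in B cells.

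Genes of effector and regulatory T cells were higher in CD4 T cells. Of 16 Th1 and cytotoxic genes 14 were higher in CD4 T cells, with a median of -3.21, led by Nkg7 (65.8-fold), Ifng, Fasl and Ccl5, and 12 had a lower difference in gland than in spleen. With all 17 arrays in the fit 2 of the 16 had a lower difference, while their median gland minus spleen difference stayed at -1.68. Epithelium replicates 1, 2 and 3, which the main fit leaves out, averaged 7.37, 3.71 and 3.6 over these genes. Why fewer genes passed was not tested. Of 14 regulatory T cell genes 12 were higher in CD4 T cells, with a median of -4.56, and 10 had a lower difference. Over all genes 6.02% were higher in CD4 T cells and 4.14% had a lower difference. Foxp3, the factor that defines regulatory T cells, stood at 9.72, 9.86, 9.68 and 9.45 in gland CD4 T cells and at 5.09 to 5.34 in gland B cells (21.7-fold); its difference was -4.44 in gland and -2.90 in spleen (-1.54, adjusted p = 9.53e-06). Of 14 follicular helper genes 7 were higher in CD4 T cells and 1, Cxcr5, in B cells (median -0.84), while Bcl6, the shared factor of follicular helper T cells and germinal centre B cells, differed by 0.60. Lag3 (20.5-fold) and Rgs16, a brake on G protein signals (18.8-fold), were higher in gland CD4 T cells and not called in spleen, with gland minus spleen differences of -3.59 and -3.72.

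Of 10 germinal centre B cell genes 2 were higher in B cells, Basp1 (4.89-fold) and Rgs13 (2.20-fold), and 2 in CD4 T cells, S1pr2 (4.05-fold) and Fas (2.12-fold), with a median of 0.52. Rgs13 stood at 1.79, 2.09, 3.57 and 2.76 in B cells, below the median of all values, and was at 0.80 without B cell replicate 3. Fas was at -0.97 with arrays centred on their medians. Of 7 genes of naive T cells (median 0.16) 3, Actn1, Lef1 and Igfbp4, were higher in CD4 T cells, but Klf2, a factor of resting T cells, was 2.65-fold higher in B cells (mean 9.54 ± 0.33 SD against 8.14 ± 0.40, n = 4 each, with no overlap), and 5 of the 7 had a higher difference in gland than in spleen, against 1.35% of all genes.

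Some cell cycle and glycolysis genes were higher in CD4 T cells. The shares over all genes were 6.02% higher in CD4 T cells and 4.14% with a lower difference in gland than in spleen. Of 19 cell cycle genes 11 were higher in CD4 T cells and none in B cells, with a median of -1.58, and 13 had a lower difference in gland than in spleen. Mki67, the Ki-67 proliferation marker, stood at 8.42, 8.14, 8.34 and 8.49 in CD4 T cells, against 5.92, 6.06, 6.22 and 6.85 in B cells (4.24-fold, adjusted p = 8.76e-07), against means of 7.93 and 7.82 in spleen. Tyms, which makes thymidylate (5.86-fold), Nusap1 (4.99-fold) and Birc5 (4.65-fold) were also higher in CD4 T cells, but Tyms was at -0.83 when its probe sets were averaged, and 9 of 19 genes were then called. Of 13 glycolysis genes 4 were higher in CD4 T cells, the lactate exporter Slc16a3 (3.30-fold), Pfkp, Hk1 and Tpi1, and none in B cells (median -0.54). None of the 11 housekeeping genes was called (median -0.02).

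Some interferon response genes separated the subsets, and the mean of the type I list varied within the B cells. Of all genes tested 9.79% were called in either direction. Of 19 type I interferon genes 4 were higher in CD4 T cells (Ifit1 5.57-fold, Ifih1 4.96-fold, Rsad2 3.50-fold and Oas3 2.33-fold) and 1, Oasl1, in B cells (5.60-fold). For none did the B minus CD4 T difference differ between gland and spleen past the limit (1 with arrays centred on their medians). The list's mean level was higher in gland than in spleen in both subsets, 7.75 against 5.95 in B cells and 8.21 against 6.63 in CD4 T cells. The list's median difference was -0.42. The mean over its genes was 8.44, 8.36, 6.60 and 7.58 in gland B cells and 8.65, 7.74, 8.33 and 8.12 in gland CD4 T cells. Ifit1 stood at 7.33, 7.43, 4.76 and 6.24 in B cells and at 9.38, 8.60, 8.91 and 8.77 in CD4 T cells. Oas3 was at -0.83 and no longer called without B cell replicate 3 (adjusted p = 0.085), and was lost without B cell replicate 4 or CD4 T cell replicate 1, 3 or 4 as well (-1.25, -1.12, -1.13 and -1.26), and with the replicate number as a block in the 8 gland arrays (adjusted p = 0.0606). Of 15 interferon gamma response genes 5 were higher in CD4 T cells, among them Cxcl10, Iigp1 (7.19-fold) and Gbp2 (2.30-fold), and Ciita in B cells (median -0.41); with arrays centred on their medians 3 were higher in CD4 T cells.

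Among 21 immediate early genes Myc (4.58-fold) and Nr4a1 (2.28-fold) were higher in B cells and Fosl2 (5.35-fold), Nr4a3, Ier3 and Nr4a2 in CD4 T cells (median 0.31). The list's mean level was 9.28 in gland B cells, 9.18 in gland CD4 T cells and 9.31 in epithelium. In spleen B and CD4 T cells it was 6.39 and 6.84, and tissue, age and handling cannot be told apart here. Of the 21, 5 had a higher difference in gland than in spleen and 1 a lower one, against 1.35% and 4.14% of all genes. Myc stood at 7.83, 8.38, 8.70 and 8.49 in B cells and at 6.43, 5.23, 6.36 and 6.61 in CD4 T cells, and its difference was higher in gland than in spleen by 2.87 (adjusted p = 0.000458). Nr4a3 stood at 8.41, 8.20, 11.49 and 7.76 in B cells and at 10.33, 11.58, 10.44 and 10.34 in CD4 T cells; the arrays overlapped, and its call (-1.71, adjusted p = 0.0463) was lost when any of the 14 arrays other than B cell replicate 3 was left out. Nr4a2 (-1.04) was lost, at -0.86 to -1.02, without B cell replicate 1, 2 or 4 or CD4 T cell replicate 1 or 2. Fosl2 stood at 10.27 in B cell replicate 3 and at 7.51 to 8.12 in the others. Of these 21 genes 2 were called in CD4 T cells when probe sets were averaged by gene or with arrays centred on their medians.

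Among genes that passed the naming rule, those whose B minus CD4 T difference changed most between gland and spleen lay on either side of 0. Below 0 were Stfa3 (-5.80), Il10, Jchain, Ccn4, a matricellular protein (-4.80), and Ifng; Ccn4 stood at 7.79, 9.03, 8.15 and 7.99 in gland CD4 T cells and at 2.52 to 2.91 in gland B cells. Above 0 were Ccr9 (4.45), Ptprf, a receptor tyrosine phosphatase (3.91), Amigo2, an adhesion protein (3.48), Cd7 (3.36) and Drc1 (3.09). Ptprf was at a mean of 10.64 in epithelium, 6.43 and 6.41 in gland B and CD4 T cells, and 2.97 and 6.86 in spleen B and CD4 T cells. Ccn4 was at a mean of 7.28 in epithelium. The part of epithelial RNA in these values was not tested. Drc1 lay between 4.29 and 4.49 in all 8 gland arrays and at a mean of 7.39 in spleen CD4 T cells. Amigo2 was higher in gland B cells (8.26, 8.23, 9.39 and 8.40 against 7.27 to 7.75) and in spleen CD4 T cells; its 2.12-fold gland difference was at 0.81 without B cell replicate 3. With all 17 arrays in the fit the differences of Ccr9, Ptprf, Amigo2 and Drc1 held and that of Cd7 did not (adjusted p = 0.115). The gland difference of Cd7, not called with all arrays, was called as higher in CD4 T cells without B cell replicate 1 (-1.51) or 2 (-1.47).

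**Figure D5:**
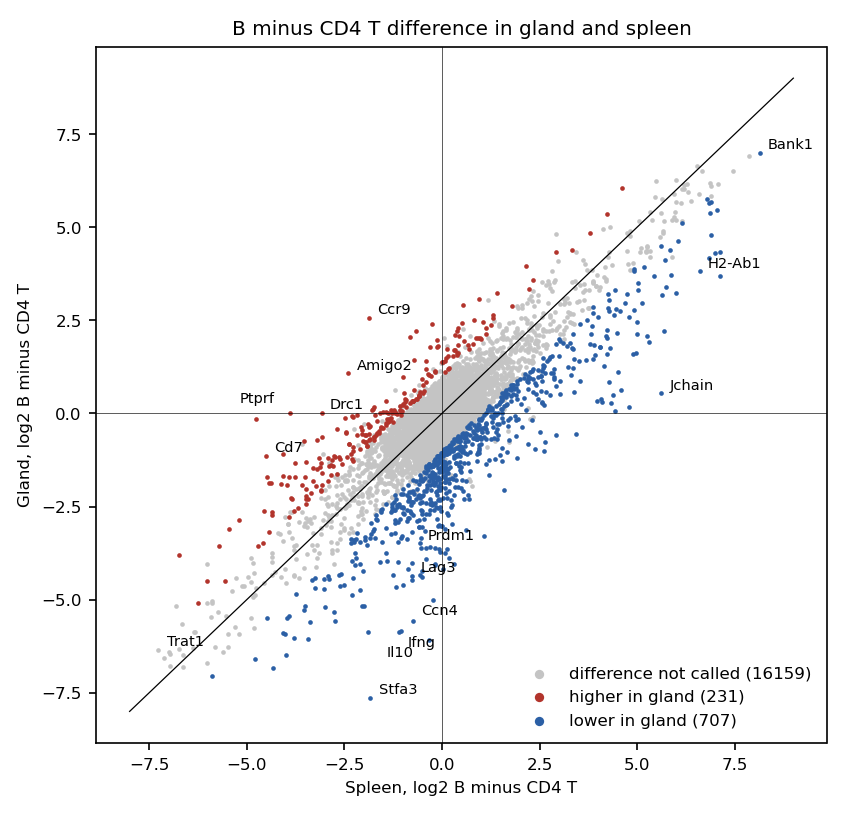
B minus CD4 T difference on the log2 scale in spleen (x axis) and gland (y axis) for 17097 genes, with the line of equal difference. Red points (231) had a higher and blue points (707) a lower difference in gland; Stfa3, Il10, Ifng and Ccn4 lie low near the middle of the x axis and Jchain to the right.

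In spleen 797 genes (4.66%) were higher in B cells, against 788 (4.61%) higher in CD4 T cells, or 9.27% in all. Of the 644 genes higher in gland B cells 490 (76.1%) were also higher in spleen B cells, 152 were not called in spleen and 2 were called the other way. Of the 1029 genes higher in gland CD4 T cells 543 (52.8%) were also higher in spleen CD4 T cells, 476 were not called and 10 were called the other way. By the test of the difference itself, 64 of the 644 were wider in gland and 105 narrower, and 386 of the 1029 were wider and 66 narrower. The last counts come from a comparison that shares the gland arrays with the calls they divide, and nothing is read from their size.

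Several genes with a large spread in gland B cells, chosen after their values were seen, were high in the same arrays. Ccr9 stood at 8.88, 8.54, 5.87 and 7.34 in gland B cell replicates 1 to 4, Cd7 at 7.35, 7.23, 4.51 and 5.86 and Clec10a, a lectin of dendritic cells, at 7.06, 6.84, 3.80 and 4.36. Slamf9 (7.61, 7.83, 5.62 and 6.54) and Ptprf (7.30, 6.87, 5.50 and 6.06) followed, as did Ifit1 and Oasl1 (8.98, 8.77, 7.19 and 8.17): replicates 1 and 2 were high, 4 lay between and 3 was low. Of 9 listed genes of plasmacytoid dendritic cells, which can carry B220, 7 were measured, and Siglech and Bst2 were not. Of the 7, 4 were higher in gland B cells (Ly6d, Tcf4, Irf8 and Ccr9) and 1, Pacsin1, in CD4 T cells. Klk1 (-0.15) and Cox6a2 (0.94) were not called. Klk1 was at 2.08 and called when its probe sets were averaged. Cox6a2 was called at 1.06 with arrays centred on their medians and at 1.15 without B cell replicate 3. Ly6d, Tcf4 and Irf8 are also B cell genes. Averaged over the 7 genes, the level was 8.34, 8.29, 7.57 and 7.96 in gland B cells, 7.59 to 7.66 in spleen B cells and 6.12 to 6.21 in gland CD4 T cells. Of 9 conventional dendritic cell genes Flt3 (4.18-fold), Sirpa (4.58-fold) and Clec10a (3.50-fold) were higher in gland B cells. Sirpa was at 0.90 when its probe sets were averaged, and Clec10a was not called without B cell replicate 1 (1.29), B cell replicate 2 (1.37) or CD4 T cell replicate 1 (1.75). Nor was Clec10a called in a fit of the 8 gland arrays alone (1.81, adjusted p = 0.0809) or with the replicate number as a block there (adjusted p = 0.0969). Without B cell replicates 1 and 2, a setting chosen after seeing the data, Ccr9 was at 1.52 and still called (adjusted p = 0.0049), Clec10a at 0.37 and not called, Fosl2 at -2.0 and not called (adjusted p = 0.0593), and 637 and 1067 genes were called in all. The part of dendritic cells in these values was not tested.

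Of the lists of other cell types, the secretory and epithelial ones held no gene called between the gland subsets, and some others did. The share called over all genes was 9.79%, so that 0 or 1 call in a short list lies near it. Obp1a, an odorant binding protein of the lacrimal secretion, stood at 11.47, 11.38, 11.27 and 11.04 in B cells and at 11.44, 11.21, 11.01 and 11.12 in CD4 T cells, beside 12.20 to 12.41 in epithelium and means of 4.06 and 3.85 in spleen. The mean level of 11 secretory genes was 7.03 to 7.24 in B cells, 7.18 to 7.95 in CD4 T cells, 3.58 to 5.32 in the spleen arrays and 8.50 to 9.58 in epithelium, and no gene was called. The mean level of 15 epithelial genes was 5.20 to 5.41 and 5.32 to 5.61 in the gland subsets, 3.62 to 3.95 in spleen and 9.06 to 9.69 in epithelium, again with none called. Without the genes that epithelium carried at 4-fold or more over both gland subsets, 615 and 942 calls were left. Of 13 myeloid genes 1, Adgre1, was higher in B cells (3.58-fold), and no gene of neutrophils and mast cells, fibroblasts or red cell precursors was called. Of 10 endothelial genes 1, Pecam1, an adhesion protein that leukocytes also express, was higher in B cells (2.93-fold; 7.25 to 7.88 against 5.92 to 6.43), and its difference was higher in gland than in spleen by 1.27. Of 8 genes of natural killer and CD8 T cells Gzma and Eomes were higher in CD4 T cells.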

How the data were processed

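RNA of sorted cells was amplified (NuGEN Ovation), biotin labelled and hybridised to probe arrays, per the labels' protocols; RNA integrity was above 8 except in 3 samples, which the labels do not match to arrays. The deposited values are log2 signals that the authors made with RMA in Partek, per the submitters' processing notes; quantile normalization within RMA can compress global shifts. No detection call was used. Of 45141 probe sets, 104 were controls, 15588 were not listed in the platform annotation, 551 named several genes and 28898 named 1 (28689 matched to a current gene by identifier); each of 17097 genes was read through its brightest probe set, by the mean of 17 arrays. The sample table names all columns.

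limma 3.58.1 (R 4.3.3) was fitted to the 14 lymphocyte arrays in 4 groups (10 residual and 3.39 prior degrees of freedom; median SE of the gland difference 0.102), with Benjamini-Hochberg adjustment over all genes; a gene was called at an adjusted p under 0.05 and at least 2-fold. The number of arrays limits the precision. The difference of the gland and spleen differences was a contrast of the same fit. Tables and figures used Python 3.11.15, pandas 2.3.3, numpy 2.4.6 and matplotlib 3.10.9. The fit was tested on simulated data. The comparison and the 49 gene lists were chosen with earlier results of these data known.

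Genes were named by a rule: among called genes whose arrays did not overlap and whose higher mean exceeded 4.71, the median deposited value, the 10 largest differences in each direction (antigen receptor segments and unnamed gene models left out), up to 4 called genes of each list or all of a list with 5 or fewer, listed receptor and ligand partners, the 5 largest gland minus spleen differences in each direction, the 4 markers, and members needed to show what did not pass. Genes named beyond it, such as Foxp3, Tlr7, Tbx21, Prdm1 and Gbp2, were chosen after their values were seen. Alternatives changed the probe set, filter, scaling, arrays, weights, replicate block and threshold. Same-numbered gland B and CD4 T arrays correlated at 0.215, -0.397, -0.125 and 0.068 in their deviations from group means, so the numbers were not taken as pairs.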

Additional observations from a re-analysis of the deposited data

Results flagged for a closer look

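In 29 of 480 groups of 4 arrays tested (6.04%) 1 array stood apart from the other 3; chance alone marks about 1 group in 20, so no pattern is read from these. Among gland B cells replicate 3 was the array apart for Amigo2 (9.39, the others at 8.23 to 8.40), Csf1 (5.09), Irf8 (10.04), Prdm1 (5.78) and Slc15a4 (8.68), and for the mean level of the Toll-like receptor list (6.85) and of the interferon gamma response list (7.72). Replicate 1 stood apart for Cd3g (3.69), Slc16a3 (4.24) and Xbp1 (8.37). Among gland CD4 T cells replicate 2 stood apart for Btla (9.53), Ccl3 (7.45), Ccl4 (7.18), Ccr1 (2.17), Grb2 (10.19), Ifngr1 (8.67), Il21r (8.91, the others at 7.78 to 7.94), Il2rb (10.50), Nr4a3 (11.58) and Rab30 (1.21), and for the mean level of the B cell receptor signalling list (6.48) and of the interleukin and interferon receptor list (7.94). Replicate 1 of the CD4 T cells stood apart for Basp1 (6.42), Blk (4.80), Cd4 (10.53), Cd80 (4.62), Cxcl2 (2.65) and Irf8 (7.41), and replicate 3 for Il5ra (2.47).

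For 29 named genes the B minus CD4 T difference itself differed between gland and spleen, by limma's test of the difference over all genes. It was higher in gland, given as gland minus spleen, for Ccr9 (4.45), Ptprf (3.91), Amigo2 (3.48), Cd7 (3.36), Drc1 (3.09), Myc (2.87), Pecam1 (1.27) and H2-Ob (1.13). Among cytokine and chemokine genes and their receptors it was lower for Il10 (-5.74), Ifng (-4.78), Ccr8 (-4.77), Il21 (-3.98), Ccl1 (-3.67) and Cxcl10 (-2.92). Among antigen presentation genes it was lower for H2-Ab1 (-2.79), Cd74 (-2.76), H2-Aa (-2.69), H2-Eb1 (-2.67) and H2-DMb2 (-1.18). Among antibody and plasma cell genes it was lower for Jchain (-5.07), Prdm1 (-2.92), Tnfrsf17 (-1.38), Xbp1 (-1.37) and Irf4 (-1.23). Lower differences were also measured for Stfa3 (-5.80), Ccn4 (-4.80), Rgs16 (-3.72), Lag3 (-3.59) and Foxp3 (-1.54). Tissue, spleen donor age as labelled and digestion cannot be told apart in these values.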

How the results depend on the processing

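Among 29 other settings, those with another fold limit were counted apart. Of 220 named values (191 gland differences and 29 gland minus spleen differences), 28 changed their call in at least 1 of the rest. The other 192 kept it in each of the rest that held them. The limit of at least 4-fold took the call from 40 named gland differences and 7 named gland minus spleen differences. At an adjusted p alone, named values were not counted. The filter on dim genes held 181 of the gland differences. Leaving out epithelial genes held 187 gland and 27 gland minus spleen differences, and the fits of the 8 gland arrays held none of the latter. The cause of the changes was not tested, and the 1 reversal was Klk1, at 2.08 when its probe sets were averaged. Averaging probe sets left 9 pairs in opposite subsets against 13. With all 17 arrays in the fit, fewer genes of 2 lists had a lower difference in gland than in spleen. The count went from 12 to 2 in the Th1 and cytotoxic list and from 7 to 3 in the chemokine list. The median gland minus spleen differences of these lists stayed at -1.68 and -0.22. At an adjusted p alone 5703 gland differences were called (2735 above 0 and 2968 below), 2196 gland minus spleen differences (824 and 1372) and 4205 spleen differences. At least 4-fold left 721 (281 and 440), 248 (37 and 211) and 708, with 4 pairs in opposite subsets and 166 called list genes. Leaving out 1 array gave 631 to 671 gland calls above 0 and 1021 to 1062 below (1653 to 1714 in all), 214 to 276 and 665 to 719 gland minus spleen calls (882 to 972), 1575 to 1598 spleen calls, 12 to 13 pairs and 244 to 257 list genes. Fitting the replicate number as a block gave 627 and 1021 gland calls in the 8 gland arrays and 218 and 677 gland minus spleen calls in 14 arrays; the samples share only a number. Without gland B cell replicates 1 and 2 (chosen after seeing the data) the counts were 637 and 1067, and 227 and 714. Without detection calls, low levels cannot be told from background, and 4 and 3 arrays a group limit the precision.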
